A study of Mus musculus with 6 samples.

Results

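Genes of lymphoid priming and of the B lineage were followed in mouse blood progenitors, in Cebpa-deleted and control samples. The list was chosen with earlier results of these data known. It named 34 genes by their known roles, 19 of early lymphoid priming and 15 of the later B lineage. Each was read from the array row whose annotation names that gene alone, and 33 of the 34 had such a row, out of 19938 genes measured this way. The 33 comprised 18 early lymphoid and 15 B lineage genes. Il2rg, which encodes the common gamma chain of the IL-7 and IL-2 receptors, was not analysed here.

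The cells were sorted LSK CD150- cells from bone marrow first enriched for Kit. LSK cells lack markers of mature blood lineages and carry Sca-1 and Kit, and CD150 marks long-term stem cells. Both genotypes were homozygous for a Cebpa allele flanked by loxP sites (Cebpafl/fl), and all mice were injected with the double-stranded RNA pIpC and killed at day 18. The 3 deleted samples (Cebpafl/fl;Mx1Cre) also carried Mx1Cre, a Cre transgene under an interferon-inducible promoter that is active in many tissues besides blood. The 3 control samples had no Cre, so an effect of the transgene and one of the lost gene cannot be told apart. Each sample had 1 array, giving n = 3 per genotype. The labels speak of triplicates and do not say that these came from separate mice, so p-values measure the spread between these samples, which may be technical. No age of the mice is stated. The labels call the mice female, but Kdm5d and Eif2s3y, both on the Y chromosome, read 8.04 to 8.49 on the log2 scale on all 6 arrays, and Xist read 4.46 to 5.13.

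Multipotent progenitors begin to transcribe some lymphoid genes before they commit to any lymphoid fate, a state called lymphoid priming. The earliest of these genes include Dntt, the Rag genes and the IL-7 receptor. The transcription factors Ebf1 and Pax5 then switch on the B cell programme, including the chains of the pre-B cell receptor. C/EBPα, the product of Cebpa, drives granulocyte and monocyte fates in the same progenitors, and it can silence B cell genes when forced into B cells.

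The upstream sequences of 4 genes are shown because the results turn on their transcripts: Arpp21 and Cd72 passed the test across all genes, Dntt read bright on every array, and Vpreb1 was the pre-B receptor chain with the smallest p. Each run gives the 250 bases before the RefSeq start of the gene (GRCm38.p6), 5′ to 3′ on the strand of the gene. Capitals mark matches to 3 cores searched on both strands: GAGGAA, bound by the ETS factor PU.1, CCCNNGGG, bound by EBF1, and TTGCNNAA, bound by C/EBP proteins. Arpp21 has 9 RefSeq starts, and the most upstream is shown. Which start the array row reads was not determined.
Arpp21 (chr9:112233723-112233972, minus strand): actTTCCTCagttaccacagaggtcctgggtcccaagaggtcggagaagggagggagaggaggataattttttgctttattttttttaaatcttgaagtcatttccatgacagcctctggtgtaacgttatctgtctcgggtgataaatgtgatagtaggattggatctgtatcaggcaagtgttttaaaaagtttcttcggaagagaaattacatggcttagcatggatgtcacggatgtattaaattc
Cd72 (chr4:43454627-43454876, minus strand): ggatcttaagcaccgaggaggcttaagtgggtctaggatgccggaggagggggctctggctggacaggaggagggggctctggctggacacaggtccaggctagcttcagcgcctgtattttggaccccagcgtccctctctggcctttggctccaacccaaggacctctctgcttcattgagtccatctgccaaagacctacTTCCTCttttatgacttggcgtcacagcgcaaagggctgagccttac
Dntt (chr19:41029025-41029274, plus strand): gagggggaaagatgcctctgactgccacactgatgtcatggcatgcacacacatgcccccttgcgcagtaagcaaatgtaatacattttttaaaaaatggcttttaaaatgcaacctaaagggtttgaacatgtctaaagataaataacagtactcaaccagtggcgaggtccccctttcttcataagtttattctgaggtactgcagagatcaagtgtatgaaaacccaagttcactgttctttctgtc
Vpreb1 (chr16:16869256-16869505, minus strand): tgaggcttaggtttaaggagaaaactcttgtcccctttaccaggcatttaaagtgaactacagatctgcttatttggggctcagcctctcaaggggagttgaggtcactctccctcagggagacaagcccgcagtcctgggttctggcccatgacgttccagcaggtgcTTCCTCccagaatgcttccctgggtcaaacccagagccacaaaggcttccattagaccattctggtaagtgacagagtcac

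Every match in these windows was to the PU.1 core on the opposite strand: 247 bases before the start in Arpp21, 47 in Cd72 and 81 in Vpreb1. No core matched in the Dntt window, which says only that these letters are not in it. Windows were found for 25 of the 33 genes, 44 windows in all since some genes have several starts. The PU.1 core lay in 17 of these 44 windows (38.6%), against 23.3% of the 32851 windows of all genes. The EBF1 core lay in 6 (13.6%, against 11.8%) and the C/EBP core in 4 (9.09%, against 9.56%). Those 4 windows belonged to Arpp21, Bank1, Il7r and Pou2af1, and that of Arpp21 lay at another start than the one shown. Windows of one gene can overlap, so these shares are descriptions.

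The check of the deletion came first. Cebpa read 7.84, 7.85 and 7.73 in controls a, b and c and 6.37, 5.82 and 6.09 in deleted a, b and c, all on the log2 scale of the deposited intensities. Its difference, deleted minus control, was -1.71 ± 0.14 (SE), with an adjusted p of 0.000883. Deleted a lay above the median of all values (6.20) and deleted b and c below it. Remaining Cebpa RNA and background were not told apart. Adjusted p-values come from limma over all 19938 genes, with Benjamini-Hochberg adjustment, and genes under 0.05 are said to have risen or fallen. Of the markers of the sort, Kit read 9.23 to 10.31. Slamf1, which encodes CD150, read 3.48 to 4.86 and lay below the median of all values (6.20) on all arrays. Slamf1 was higher in deleted samples without overlap (0.53 ± 0.24 SE, adjusted p = 0.314), from 3.93 in control c to 3.94 in deleted a at the nearest. Deleted c was highest at 4.86. Cd34 read 11.19 to 11.62 and Cd48 9.71 to 10.96. Cd34, Cd48 and Flt3 are surface genes that are not among the markers named for the sort. Ly6a, which encodes Sca-1, was not analysed here. Kit (-0.75 ± 0.13 SE, adjusted p = 0.0270) and Flt3 (-0.71 ± 0.14 SE, adjusted p = 0.0469) fell, and Cd48 rose by 1.00 ± 0.11 (SE, adjusted p = 0.00520). Leaving out an array kept the call of Kit only without deleted a and that of Flt3 only without deleted c (adjusted p up to 0.101 and 0.145). Flt3 also lost its call under quantile normalization, median centring and cyclic loess (up to 0.0582). Kit and Flt3 belong to the surface phenotype of lymphoid-primed progenitors, and the part of their falls in the values below was not tested.

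Of the 33 genes, 2 passed the threshold: Arpp21 rose and Cd72 fell. They make up 6.06% of the 33, against 1.43% of all genes tested (286 of 19938, with 0.702% higher and 0.732% lower). The list was chosen with earlier results of these data known, so its shares here and below are descriptions and no test of it. Of those 286 genes, 49.0% were higher. The share was 61.6% of the 336 genes called after quantile normalization and 65.8% of the 351 called after median centring. At an unadjusted p under 0.05 there were 8 of the 33 (24.2%), against 15.9% of all genes; 5 were higher and 3 lower, against 9.1% and 6.77% of all genes. The values of the genotypes did not overlap for 10 (30.3%), against 21.2%; 7 were higher and 3 lower in deleted samples, against 12.5% and 8.68%. The median log2 difference was -0.01 for the early lymphoid genes and 0.09 for the B lineage genes, beside 0.03 for all genes. These medians became 0.02, 0.11 and 0.05 after quantile normalization and 0.04, 0.14 and 0.08 after median centring, so the sign of the early median turned as that of all genes moved up. The spread among early genes was wide, from -0.31 for Il12rb1 to 0.95 for Cd52. These are bulk samples, in which fewer cells that express a gene and less of its RNA per cell cannot be told apart.

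**Figure D1:**
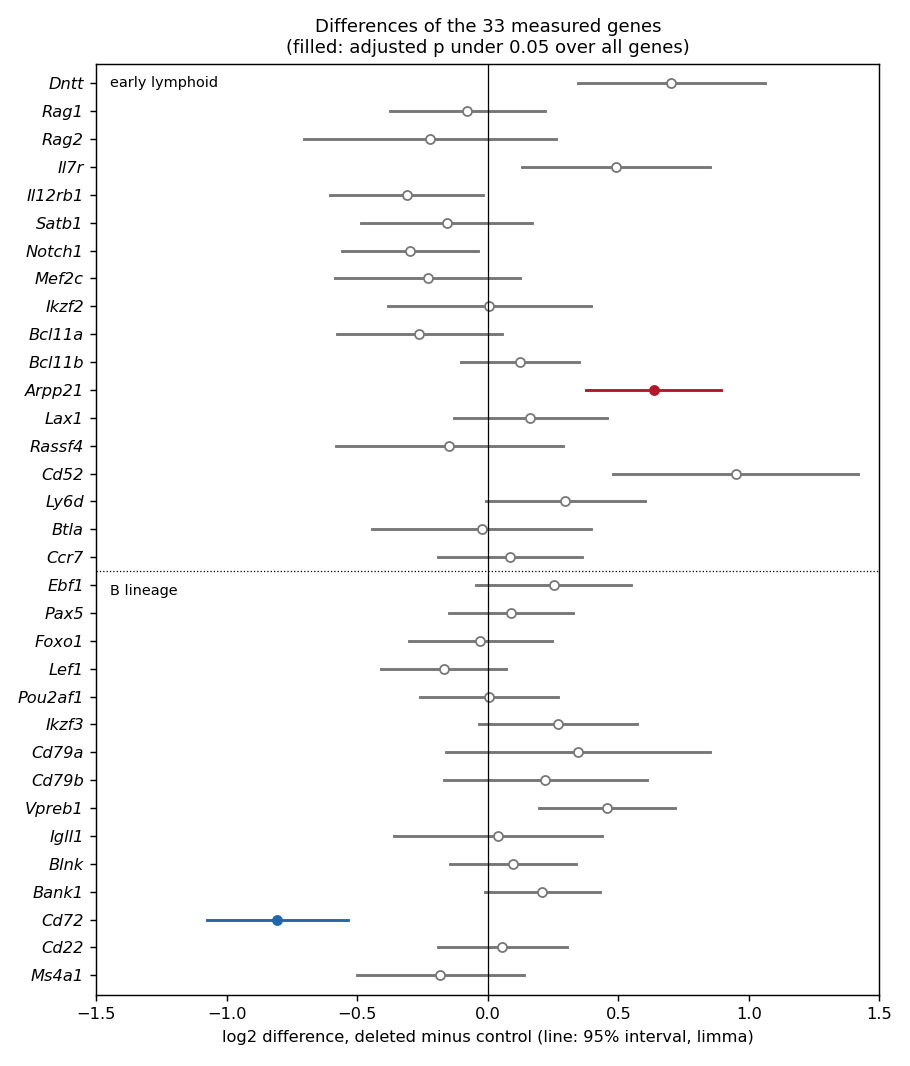
Log2 difference of each gene, deleted minus control (horizontal axis), with its 95% interval from limma; filled points passed an adjusted p of 0.05 over all genes, and the dotted line separates the early lymphoid genes from the B lineage genes. Arpp21 (0.63) and Cd72 (-0.81) are the filled points, while Cd52, at 0.95, has the largest difference but a wide interval of 0.48 to 1.42.

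Of the recombination enzymes of the early list, none passed the test. Dntt, the terminal transferase that adds bases at antigen receptor joints, read 10.42, 10.95 and 10.80 in the controls and 11.20, 11.44 and 11.62 in the deleted samples. Every deleted value lay above every control value, by 0.25 between the nearest pair. The difference was 0.70 ± 0.16 (SE), a 1.63-fold higher level (95% interval 1.27 to 2.09), with an adjusted p of 0.0688. Over the 10 other settings that kept 6 arrays that p lay between 0.0379 and 0.0772, passing in 4. It lay between 0.0810 and 0.176 when an array was left out, passing in none. Rag1 and Rag2, whose products cut the antigen receptor genes together, lay below the median of all values on all 6 arrays. Rag1 read 5.73, 5.71 and 5.68 in controls and 5.51, 5.91 and 5.45 in deleted samples, with a difference of -0.08 (95% interval -0.38 to 0.22). Rag2 differed by -0.22 (95% interval -0.70 to 0.26). The genotypes overlapped for both Rag genes.

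Il7r, the receptor chain that binds IL-7, a growth factor of lymphoid progenitors, was dim throughout. It read 5.13, 4.82 and 5.34 in controls and 5.49, 5.85 and 5.43 in deleted samples, below the median of all values on every array. The deleted samples lay higher without overlap, although deleted c exceeded control c by only 0.08. The difference was 0.49 ± 0.16 (SE), with an adjusted p of 0.177. Il12rb1, a chain of the IL-12 and IL-23 receptors, read 6.62, 6.75 and 6.64 in controls against 6.52, 6.09 and 6.47. Its values were lower in deleted samples without overlap (-0.31 ± 0.13 SE, adjusted p = 0.283), and deleted b was the lowest.

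**Figure D2:**
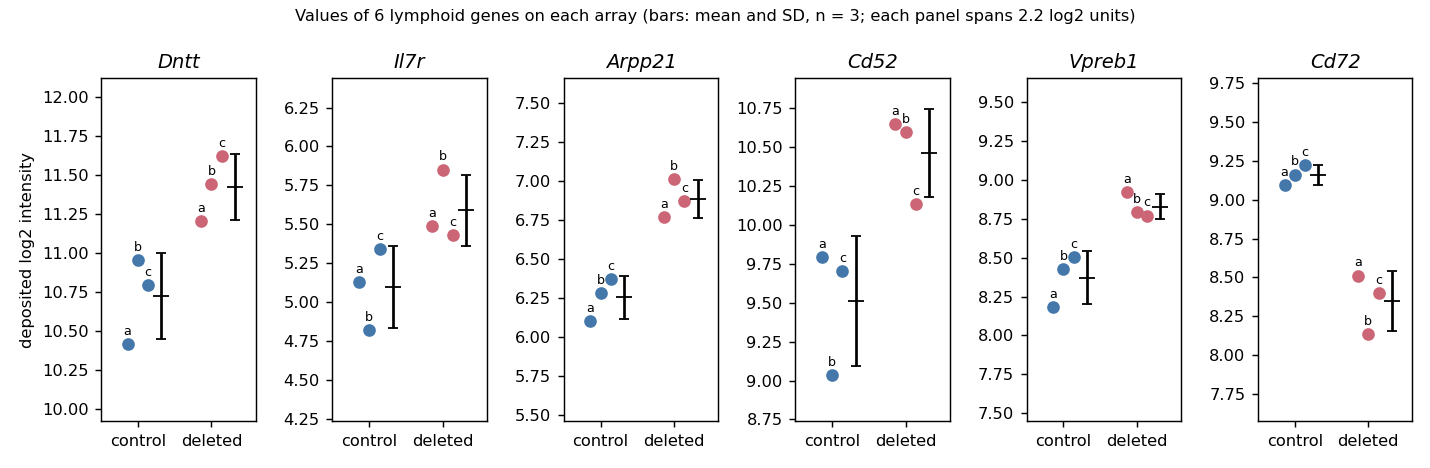
Deposited log2 intensity (vertical axis, 2.2 units in each panel) of 6 genes on the 3 control and 3 deleted arrays, lettered as in the labels; bars give the mean and SD of each genotype. The 6 were picked from the 10 of 33 genes without overlap (30.3%, against 21.2% of all genes). Of those 10, 7 were higher and 3 lower in deleted samples. In the 6 panels shown the deleted samples are higher except for Cd72, and control b stands low for Cd52 at 9.03.

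The early transcription factors, grouped here with the receptor Notch1, showed small differences, and none of the 6 genes passed. Notch1, the receptor that directs progenitors to the T lineage, read 7.43, 7.38 and 7.55 in controls and 6.97, 7.30 and 7.19 in deleted samples. It was lower without overlap, by 0.08 between the nearest values, with a difference of -0.30 ± 0.12 (SE, adjusted p = 0.246). Bcl11b, a T lineage factor, went the other way by 0.12 (95% interval -0.10 to 0.35), with nearest values of 6.53 in control c and 6.54 in deleted c. The remaining members overlapped between genotypes. Bcl11a, required for early B lymphopoiesis, differed by -0.26 (95% interval -0.58 to 0.05), with control b highest at 9.33. Mef2c, which favours lymphoid over myeloid fate, differed by -0.23 (95% interval -0.58 to 0.12), and Satb1, a chromatin organiser of lymphoid progenitors, by -0.16 (95% interval -0.48 to 0.17). Ikzf2, the Ikaros family member Helios, differed by 0.01 (95% interval -0.38 to 0.39). All 6 genes lay above the median of all values on every array.

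Arpp21, which encodes a phosphoprotein transcribed in early T and B precursors, was the 1 early gene that rose. It read 6.10, 6.28 and 6.37 in controls and 7.02 in deleted b, 6.88 in deleted c and 6.77 in deleted a. The lowest deleted value lay 0.40 above the highest control value. The difference was 0.63 ± 0.12 (SE), a 1.55-fold rise (95% interval 1.30 to 1.86), with an adjusted p of 0.0337. It passed in all 10 other settings that kept 6 arrays, with adjusted p-values of 0.0215 to 0.0417. With 5 arrays it passed without control c (0.0476) and did not without control a (0.101), control b (0.106), deleted a (0.0617), deleted b (0.115) or deleted c (0.0857), while its log2 difference stayed between 0.56 and 0.70. The other early signalling genes overlapped between genotypes. Lax1, an adaptor that restrains antigen receptor signalling, differed by 0.16 (95% interval -0.13 to 0.46) and Rassf4, a Ras association domain protein, by -0.15 (95% interval -0.58 to 0.29).

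Among the early surface proteins, Cd52, a short glycoprotein anchored on lymphocytes, had the largest difference of the whole list. It read 9.79, 9.03 and 9.70 in controls and 10.65, 10.60 and 10.13 in deleted samples. No values overlapped, but the controls spread over 0.76, with control b low. The difference was 0.95 ± 0.21 (SE), 1.93-fold (95% interval 1.39 to 2.67), and missed the threshold at an adjusted p of 0.0640. It passed in 1 of 10 other settings with 6 arrays, the one restricted to the brighter genes, with a mean no lower than the median gene (0.0433), and in none of the 6 that left out an array (0.0678 to 0.177). Ly6d, which marks lymphoid progenitors bound for the B lineage, read 6.20, 6.35 and 6.65 against 6.66, 6.59 and 6.84, with an overlap between control c and deleted b (0.30, 95% interval -0.01 to 0.60). Ccr7, a homing receptor, differed by 0.08 (95% interval -0.19 to 0.36) and the inhibitory receptor Btla by -0.02 (95% interval -0.45 to 0.40). Btla varied more among deleted samples, from 5.12 to 5.92, than among controls, from 5.35 to 5.67.

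In the B lineage list, Cd72 fell and none rose. Cd72, an inhibitory co-receptor of B cells, read 9.09, 9.16 and 9.22 in controls and 8.51, 8.14 and 8.40 in deleted a, b and c. The genotypes were 0.58 apart at their nearest values. The difference was -0.81 ± 0.12 (SE), a 1.75-fold fall (95% interval 1.45 to 2.11), with an adjusted p of 0.0151. The call held in all 10 other settings with 6 arrays (0.0107 to 0.0299) and in 4 of 6 that left out an array. It was lost without control b (0.0701) and without deleted b (0.0539), where the differences were -0.81 and -0.70. Cd22, another inhibitory receptor of B cells, differed by 0.06 (95% interval -0.19 to 0.30). Ms4a1, which encodes CD20, differed by -0.18 (95% interval -0.50 to 0.14). Both lay below the median of all values on all 6 arrays.

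None of the 6 transcription factors of the B lineage passed. Ebf1, which starts the B cell programme, read 4.24, 4.25 and 4.50 in controls and 4.35, 4.72 and 4.69 in deleted samples, with a difference of 0.25 (95% interval -0.04 to 0.55). Pax5, which fixes B cell identity, read 6.03, 6.09 and 6.0 against 6.0, 6.12 and 6.26 (0.09, 95% interval -0.15 to 0.33). Both overlapped between genotypes, and Ebf1 lay below the median of all values on every array. Ikzf3, the Ikaros family member Aiolos, differed by 0.27 (95% interval -0.04 to 0.57), with deleted c highest at 5.53. Lef1, a Wnt pathway factor of pro-B cells, differed by -0.17 (95% interval -0.41 to 0.07), Foxo1, an activator of the Rag and Il7r genes, by -0.03 (95% interval -0.30 to 0.24), and the octamer coactivator Pou2af1 by 0.00 (95% interval -0.26 to 0.27).

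None of the 4 chains of the pre-B cell receptor passed. All 4 differences were above 0, as were 56.5% of those of all genes, but that of Igll1 was as low as -0.10 when an array was left out. Vpreb1, which with Igll1 forms the surrogate light chain, read 8.18, 8.43 and 8.50 in controls and 8.92, 8.79 and 8.77 in deleted samples. The genotypes did not overlap, and the difference of 0.46 ± 0.12 (SE) was 1.37-fold (95% interval 1.14 to 1.64) with an adjusted p of 0.0956. It passed in none of 16 other settings (0.0620 to 0.241). Vpreb2 has a near-identical sequence, so signal from it cannot be separated here; its own row differed by 0.04 ± 0.10 (SE). Igll1 read 6.41, 6.68 and 6.76 against 6.25, 6.93 and 6.78, a difference of 0.04 (95% interval -0.36 to 0.44). Its deleted values thus lay on both sides of the controls.

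The signalling chains Cd79a and Cd79b were highest in 1 sample. Cd79a read 4.66, 4.42 and 4.57 in controls and 4.50, 4.68 and 5.51 in deleted samples, so deleted c alone lay clear of the rest. Its difference of 0.34 (95% interval -0.16 to 0.85) became 0.04 without that array. Cd79b read 7.73, 7.38 and 7.08 against 7.39, 7.65 and 7.82, again highest in deleted c (0.22, 95% interval -0.17 to 0.61). The adaptors of the B cell receptor were dim on all arrays. Blnk differed by 0.10 (95% interval -0.15 to 0.34), and Bank1 by 0.21 (95% interval -0.01 to 0.43) without overlap between genotypes.

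Within the deleted samples, the arrays did not move as one. Deleted c held the highest value of 5 of the 15 B lineage genes and the lowest of none, whereas deleted a held the highest of 2 and the lowest of 5. The median deviation of the B lineage genes from their control means was 0.20 in deleted c, 0.13 in deleted b and -0.04 in deleted a. For the 18 early genes it was -0.03, 0.12 and -0.02 in the same order. Controls lay between -0.06 and 0.08 over both lists, but their own values set the means, which holds them near 0. They are thus no measure of how far a deleted array may stray. The share of all genes highest or lowest on each array was not computed, and no median deviation of all genes is given here. The median of all rows was 6.16, 6.20 and 6.17 in deleted a, b and c, so whole arrays differed too. All 6 arrays lay below the median of all values for 7 of the 15 B lineage genes and for 4 of the 18 early genes, and above it for 5 and 11.

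**Figure D3:**
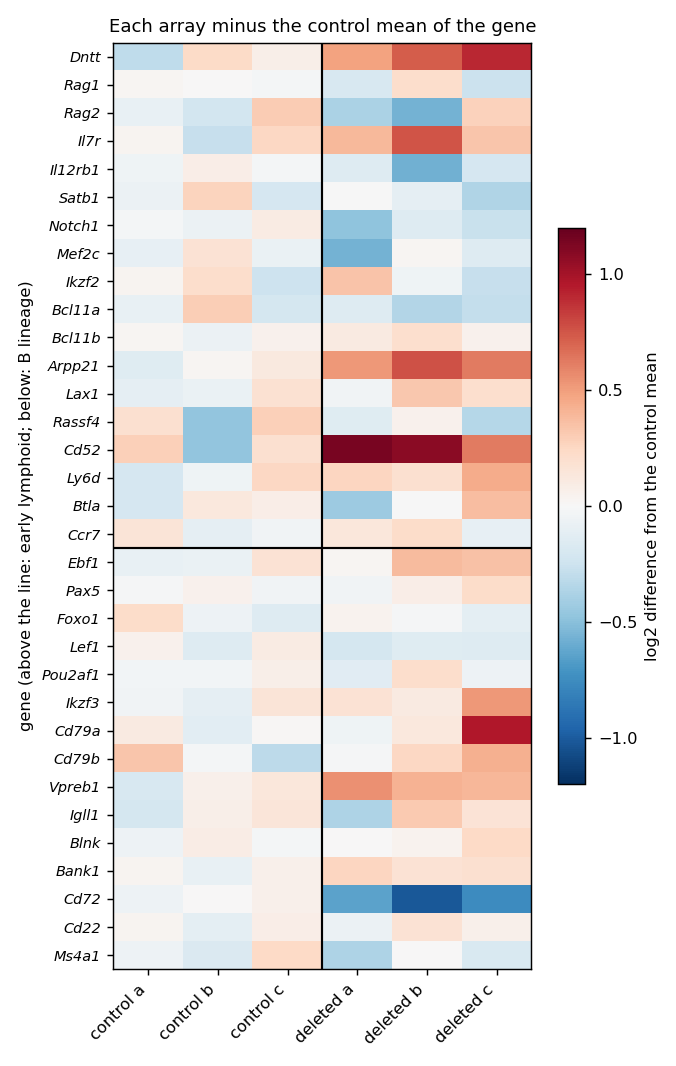
Deviation of each array (columns) from the control mean of the gene (rows), in log2 units by colour, with early lymphoid genes above the horizontal line and B lineage genes below it. Cd52, Dntt, Arpp21 and Il7r are red in all 3 deleted arrays and Cd72 is blue, while Cd79a is deep red in deleted c alone.

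Other genes of lymphoid pathways gave 5 calls, to be read beside the 1.43% of all genes that were called. Of 13 measured genes of IL-7 receptor signalling, Pim1, a kinase induced by STAT5, rose and none fell. It read 7.38, 7.54 and 7.56 against 8.45, 8.03 and 8.05 (0.69 ± 0.13 SE, adjusted p = 0.0426). Deleted a was the highest, and the call was lost when any array was left out (0.0729 to 0.130). The STAT5 genes themselves differed by 0.09 (Stat5a) and 0.04 (Stat5b). Of 11 genes of V(D)J recombination and end joining, Nhej1, a ligation factor, fell and none rose (-0.60 ± 0.11 SE, adjusted p = 0.0376). Its call held without control c and was lost without any other single array (up to 0.133).

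Of 20 other lymphoid transcription factors, 2 rose and none fell. Id2, an inhibitor of the E proteins that drive B cell genes, read 5.68, 5.85 and 5.40 in controls and 6.75, 6.99 and 7.51 in deleted samples. It rose by 1.44 ± 0.19 (SE, adjusted p = 0.0108) and passed without any single array. Runx3, a factor of cytotoxic and innate lymphocytes, rose by 0.71 ± 0.10 (SE, adjusted p = 0.0119), losing its call without control b or deleted b (up to 0.0575). Tcf3, the gene of the E protein E2A, differed by 0.04 ± 0.10 (SE), Ikzf1 by -0.11 ± 0.10 (SE) and Spi1, the gene of PU.1, by 0.30 ± 0.12 (SE, adjusted p = 0.274). Of 14 Notch pathway genes none passed, and Rbpj, the DNA-binding partner of Notch, had the smallest p (0.37 ± 0.11 SE, adjusted p = 0.149). Of 19 other genes of pre-B and B cell receptor signalling, Cd81, a tetraspanin membrane protein, fell and none rose (-0.61 ± 0.11 SE, adjusted p = 0.0337). It was called without deleted c but not without any other single array (up to 0.124).

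**Figure D4:**
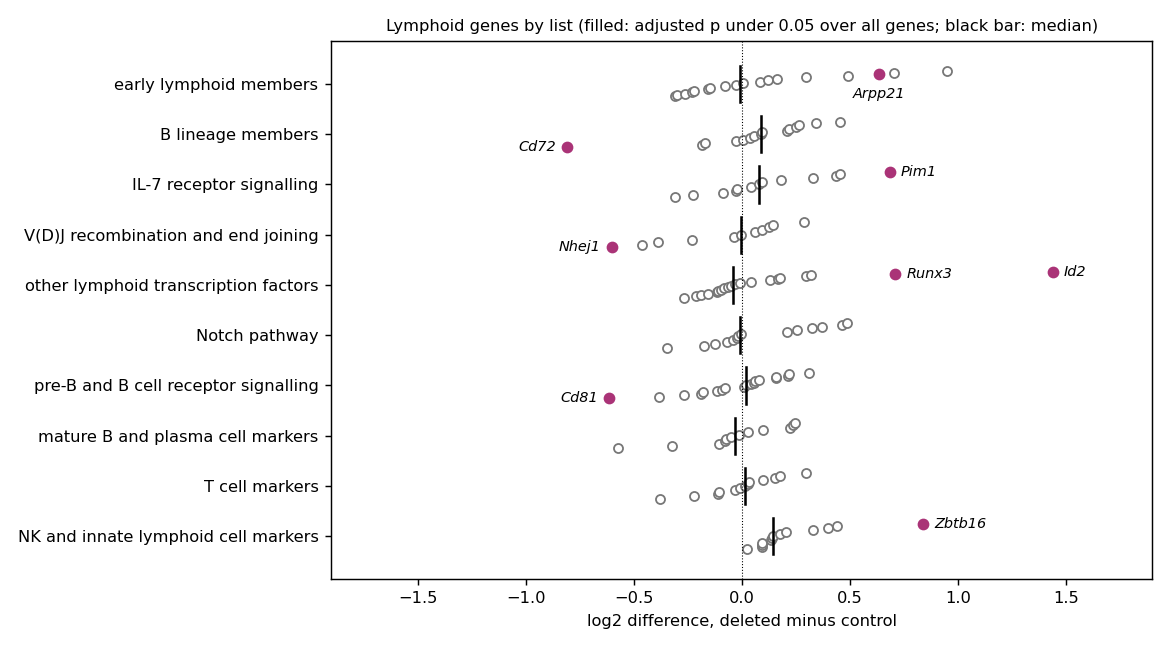
Log2 difference, deleted minus control (horizontal axis), of every measured gene in 7 lists of lymphoid genes and 3 lists of lymphocyte markers (rows); filled points passed an adjusted p of 0.05 over all genes and black bars mark list medians. List medians lie between -0.04 and 0.15, and the named points are the genes that passed. In the early list, the unfilled Cd52 (0.95) and Dntt (0.70) lie further out than Arpp21 (0.63).

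Markers of other cells were read beside these values. Of 12 markers of mature B and plasma cells none passed, and their summed intensity was 1071 to 1168 in controls and 1090 to 1110 in deleted samples. Of 13 T cell markers none passed (1815 to 2007 against 1740 to 1851), and the receptor genes Cd3d, Cd3e and Cd3g lay below the median of all values on all arrays. Of 13 markers of NK and innate lymphoid cells, Zbtb16, a factor of innate lymphocytes, rose by 0.84 ± 0.13 (SE, adjusted p = 0.0163). All 13 differences of these markers were above 0, as were 56.5% of those of all genes. Their summed intensity, to which the bright Nkg7 row adds most, was 1201 to 1384 in controls and 1369 to 1555 in deleted samples. Their mean log2 value did not overlap, at 5.59 to 5.79 against 5.87 to 6.08. Gzmb, a cytotoxic granule protease outside the list, read 5.74, 5.83 and 5.67 against 9.24, 7.18 and 7.42 and rose 4.59-fold (95% interval 2.34 to 9.01, adjusted p = 0.0438). Its call was lost without any single array but deleted a (up to 0.124) and with a robust prior (0.0507). The call of Zbtb16 was lost without control b or any deleted array (up to 0.0617). The defining NK markers Ncr1 and Klrb1c read 3.92 to 4.70 on all arrays. Ncr1 was higher in deleted samples without overlap (0.33 ± 0.12 SE, adjusted p = 0.205), and Klrb1c overlapped between genotypes (0.18 ± 0.15 SE). Cd52 and Il7r are also transcribed in innate lymphoid cells, and the part of such cells in their values was not tested. Of 12 neutrophil markers 4 fell and none rose, among them S100a8 (-3.51 ± 0.13 SE, adjusted p = 2.25e-06), and the median difference of the list was -0.46. The mean log2 value of the list did not overlap, at 6.87 to 6.95 against 5.96 to 6.10, while its summed intensity, to which the bright Mpo row adds most, was 3738 to 4611 against 2941 to 4411. Of 12 dendritic cell markers Clec10a rose, of 7 monocyte markers Cd68 fell, and of 9 erythroid and megakaryocyte markers none passed. Without single arrays, the calls of S100a8, S100a9 and Cd68 held in all 6 fits, while those of Camp (up to 0.0915), Csf3r (up to 0.13) and Clec10a (up to 0.125) were lost in some or all. Clec10a also lost its call under cyclic loess (0.0505). The sums of these last 3 lists were 1532 to 1995 against 1623 to 1806, 832 to 945 against 651 to 761, and 1760 to 2058 against 1640 to 1722. The part of any of these cells in the values of the 33 genes was not tested.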

How the data were processed

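The authors deposited log2 intensities per probe set from 6 Affymetrix Mouse Gene 1.0 ST arrays. Per the submitters' processing notes, the tools were RMA and Affymetrix Expression Console 1.1.2, with settings not stated there; per the labels' protocols, RNA was amplified before labelling. Of 35556 rows, 21789 name 1 gene in the platform annotation, which gave 19938 genes. For the 999 genes with several rows, the brightest by its 6-array mean stood for the gene, none of them among the 33. Values were used as deposited, without detection calls or a filter, so dim rows cannot be told from background. The number of arrays limits the precision.

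The test was limma 3.58.1, run in R 4.3.3 with lmFit and eBayes (two-sided, prior degrees of freedom 5.52), and tables and figures were made in Python 3.11.15 with matplotlib 3.10.9. On 20 simulations of 19938 independent genes, the fit recovered 15.2% of genes changed by 0.5, 89.5% changed by 1 and 99.8% changed by 2 on the log2 scale.

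The members and lists were chosen with earlier results of these data known, and no list was tested as a set. Every member is named, with Cebpa, the called genes of the other pathway lists (or the one with the smallest p), and markers. Genes named outside that rule, after their values were seen, are Stat5a, Stat5b, Tcf3, Ikzf1, Spi1, Vpreb2, Kdm5d, Eif2s3y, Xist, Gzmb, Nkg7 and Mpo. Deviations of same-lettered arrays from their genotype means correlated at -0.01, -0.04 and 0.06, so the letters were not taken as pairs. Alternatives varied the prior, the filter, the normalization, the rows of a gene, array weights, the block and single arrays.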

Additional observations from a re-analysis of the deposited data

How the results depend on the processing

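Each result was recomputed under 16 other settings. The number of early lymphoid genes called was 1, and it became 2 with an intensity trend in the prior, 2 after median centring and 2 with the replicate block (Arpp21 and Dntt in each), and 3 with only the brighter genes tested (Cd52 too; genes no dimmer on average than the median gene). The number of B lineage genes called was 1, Cd72, in all 10 settings with 6 arrays. Leaving out single arrays gave 0 to 1 for each list, 53 to 250 for all genes (286 with 6 arrays, 274 with the replicate block, 438 with the brighter genes) and 5 to 9 for the 160 genes of the other lists (15 with 6 arrays, 12 with the replicate block, where Pim1 at 0.0688, Nhej1 at 0.0571 and Cd81 at 0.0604 lost their calls, and Dntt reached 0.0379). The median difference of the early genes was 0.0441 over the 14 of 18 among the brighter genes, 0.02 after quantile normalization, 0.04 after median centring and -0.03 after cyclic loess, beside 0.05, 0.08 and 0.01 for all genes, and -0.0148 to 0.0747 over single arrays left out. That of the B lineage genes was 0.04 to 0.15 over single arrays left out. Of 506 single-gene comparisons 494 kept their side of the threshold, 5 gained a call (Dntt and Cd52) and 7 lost one (Arpp21 and Cd72), and none of the called genes turned its direction. The cause of these moves was not tested. Signal over background limits the 11 genes whose arrays all lie below the median of all values.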
